A study of Mus musculus with 8 samples.

Results

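Blood vessels of the liver are lined by endothelial cells, and 45 genes known for their expression in these cells were followed here in livers labelled as knockouts of the corepressor NCOR. The genes cover pan-endothelial surface proteins, receptors and transcription factors, scavenger and other proteins of the liver sinusoid, and angiocrine factors, the signals that endothelium near the central vein sends to hepatocytes. They were chosen by symbol from this general knowledge, with earlier results of these data already known. Each was read from an array probe set annotated to that gene alone, the brightest by its mean over all arrays where a gene has several. All 45 were measured, each by a single probe set, among 22180 genes in all.

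Liver RNA of 3-month-old mice on normal chow was measured on 8 Affymetrix Mouse Gene 2.0 arrays. NCOR-floxed mice had received adeno-associated virus (AAV) intravenously, with Cre in the 4 livers labelled NCOR knockout and with GFP in the 4 labelled wild-type, and livers were taken 2 weeks later at 5 pm (ZT10). Floxed animals are described for both viruses in the design text but the control label is wild-type, and the control genotype was therefore treated as unknown. The virus serotype and the promoter that drives Cre are not given in the sources used here, nor is whether Cre reached endothelial cells, and Cre differs exactly with the group. Values for the targeted gene were not analysed here. The labels say biological replicates without naming the mouse behind each array, and p-values therefore cover the variation among these 8 samples, which may be partly technical.

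Liver sinusoidal endothelial cells differ from other endothelium in that they lack a basement membrane, are pierced by open pores, and clear waste molecules from blood through scavenger receptors such as stabilin-1, stabilin-2 and the mannose receptor. Growth of endothelium is steered by VEGF acting on KDR and FLT1, by VEGF-C acting on FLT4, and by angiopoietins acting on TEK. Endothelial cells around the central vein release WNT2, WNT9B and RSPO3, which keep a pericentral programme active in nearby hepatocytes, and sinusoidal endothelium supplies BMP2 for the control of hepcidin.

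Proximal promoters are shown for Robo4, the single member past the test threshold, for Ehd3 and Stab1, the members with the next smallest p-values whose promoter held a searched motif, and for Stab2, the member with the smallest p-value whose promoter held none. They run from 250 bases before to 50 bases after the start site in RefSeq, build GRCm38.p6, and capitals mark motif matches.
Robo4 (chr9:37401722-37402021, plus strand): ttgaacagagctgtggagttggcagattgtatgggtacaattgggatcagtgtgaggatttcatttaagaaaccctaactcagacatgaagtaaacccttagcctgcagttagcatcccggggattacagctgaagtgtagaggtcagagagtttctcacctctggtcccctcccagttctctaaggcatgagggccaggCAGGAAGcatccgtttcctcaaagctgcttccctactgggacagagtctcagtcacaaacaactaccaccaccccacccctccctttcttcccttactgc
Ehd3 (chr17:73804591-73804890, plus strand): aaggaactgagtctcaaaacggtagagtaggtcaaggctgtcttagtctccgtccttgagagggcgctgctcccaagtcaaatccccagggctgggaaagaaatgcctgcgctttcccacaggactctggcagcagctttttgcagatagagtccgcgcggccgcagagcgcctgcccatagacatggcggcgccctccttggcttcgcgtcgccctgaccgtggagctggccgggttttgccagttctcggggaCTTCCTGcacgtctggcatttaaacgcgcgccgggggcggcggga
Stab1 (chr14:31168592-31168891, minus strand): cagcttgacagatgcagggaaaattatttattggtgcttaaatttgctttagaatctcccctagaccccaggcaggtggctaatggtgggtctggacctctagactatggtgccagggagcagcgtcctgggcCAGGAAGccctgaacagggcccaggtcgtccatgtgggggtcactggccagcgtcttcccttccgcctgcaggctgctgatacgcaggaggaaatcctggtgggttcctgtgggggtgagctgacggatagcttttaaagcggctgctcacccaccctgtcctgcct
Stab2 (chr10:87007893-87008192, minus strand): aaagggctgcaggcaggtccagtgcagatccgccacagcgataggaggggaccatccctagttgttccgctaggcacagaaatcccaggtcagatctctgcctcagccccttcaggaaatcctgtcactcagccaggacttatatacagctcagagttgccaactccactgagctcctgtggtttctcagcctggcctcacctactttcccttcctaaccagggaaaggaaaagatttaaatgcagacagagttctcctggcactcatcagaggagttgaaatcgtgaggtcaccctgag

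ETS factors such as ERG, SOX factors such as SOX17 and GATA4 are transcription factors of endothelium, and short sequences of their families were counted on both strands. Promoters were found for 24 of the 45 members and for 27025 genes in all. The ETS-family sequence CAGGAAG was present in 7 of the 24 member promoters (29.2%) and in 13.0% of all promoters. Those 7 belonged to Robo4, Ehd3, Stab1, Egfl7, Emcn, Calcrl and Mrc1. Counted from the start site, the match begins at base -50 in Robo4, at base -117 in Stab1 and at base 5, on the opposite strand, in Ehd3. Another ETS-family sequence, CCGGAAG, was in 0 of the 24 and in 9.12% of all promoters. Either ETS sequence was in 7 of the 24 (29.2%) and in 20.9% of all promoters. The SOX sequence ACAATG was in 2 members (Calcrl and Clec4g) against 12.8% of all promoters, and the GATA sequence AGATAA in 2 (Tek and Myct1) against 11.4%. These matches are descriptions of the letters in this window and were not tested.

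Arrays differed little in overall brightness, with medians of 41.0 to 44.1 intensity units, and 4 arrays per group limit the precision of every value. Summed intensity of 15 measured hepatocyte markers was 99212 to 102137 in control and 98328 to 100539 in knockout liver. Its largest parts come from markers such as Alb (mean log2 level 13.5), near the array maxima (13.5 to 13.7). The sum may therefore miss small changes in hepatocyte RNA. On the second principal component WT replicate 2 (-20.5) and NCOR_KO replicate 1 (-12.2) had the lowest scores, away from the rest of their groups, and results that rest on them are given with and without them. Across all genes, limma called 366 (1.65%) at an adjusted p under 0.05, 181 higher and 185 lower in knockout liver. That split became 145 and 295 with each array centred on its median. Levels below are log2 intensities, and changes are knockout minus control on the log2 scale.

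Robo4 was the single endothelial gene of the 45 to pass the test, and most of the others had a slightly higher mean in knockout liver without passing. Robo4, an endothelial receptor of the roundabout family that stabilises vessels, rose 1.28-fold. The 45 members had a median change of 0.15, with a middle range from 0.05 to 0.23, where the median over all genes was 0.01. A change above 0 was seen in 37 of the 45 members (82.2%) and in 52% of all genes. At an adjusted p under 0.05, 1 of 45 members was called (1.65% of all genes), with 1 higher (0.816% of all genes) and 0 lower (0.834% of all genes). At an unadjusted p under 0.05, limma put 16 members higher and 0 lower, where 7.75% of all genes were higher and 8.15% lower. All 4 knockout values lay above all 4 control values in 8 members, and below them in 0, where 4.9% and 5.49% of all genes did so. In bulk liver RNA a larger number of endothelial cells and more RNA per endothelial cell cannot be told apart. Some members are also expressed by other liver cells, and the part of those cells was not tested.

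**Figure D1:**
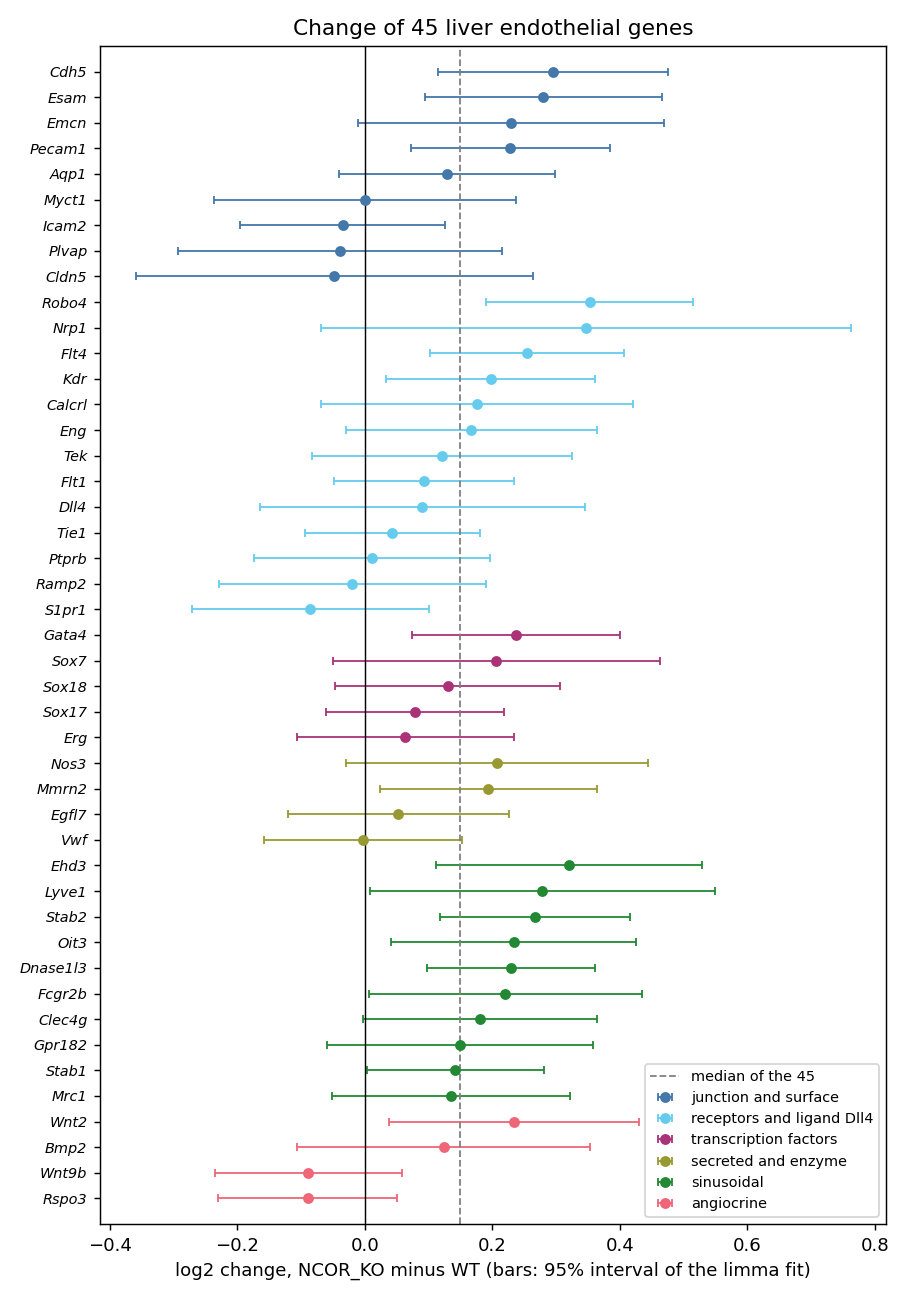
Log2 change (knockout minus control, horizontal axis) of each of the 45 endothelial genes, grouped by role, with the 95% interval of the limma fit from 4 arrays per group. The dashed line is the median of 0.15; points run from -0.09 (Rspo3 and Wnt9b) to 0.35 (Robo4), and all 10 sinusoidal genes lie right of 0.

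The standard error of a member's change had a median of 0.08, while the changes ran from -0.09 to 0.35 with an SD of 0.12 between members. A change of at least 0.2 was estimated for 17 members, where 7.01% of all genes had one, and 16 members lay within 0.1 of 0. Without WT replicate 2 and NCOR_KO replicate 1, a choice made after seeing the data, the median was 0.14, 39 of 45 members were above 0 where 48.4% of all genes were, and limma called 0. With those arrays left out 16 members were higher and 1 lower at an unadjusted p under 0.05, where 6.13% of all genes were higher and 7.70% lower.

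Array by array, the members did not part the groups cleanly. The median deviation of the 45 from their own means was -0.04, -0.20, 0.02 and -0.09 in WT replicates 1 to 4. It was -0.03, 0.09, 0.10 and 0.15 in NCOR_KO replicates 1 to 4. WT replicate 3 thus lay above NCOR_KO replicate 1, and the groups overlap. WT replicate 2 held the lowest value of 26 of the 45 genes, and NCOR_KO replicate 4 held the highest value of 18. Without WT replicate 2 the median change of the members was 0.10, and without WT replicate 3 it was 0.21.

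**Figure D2:**
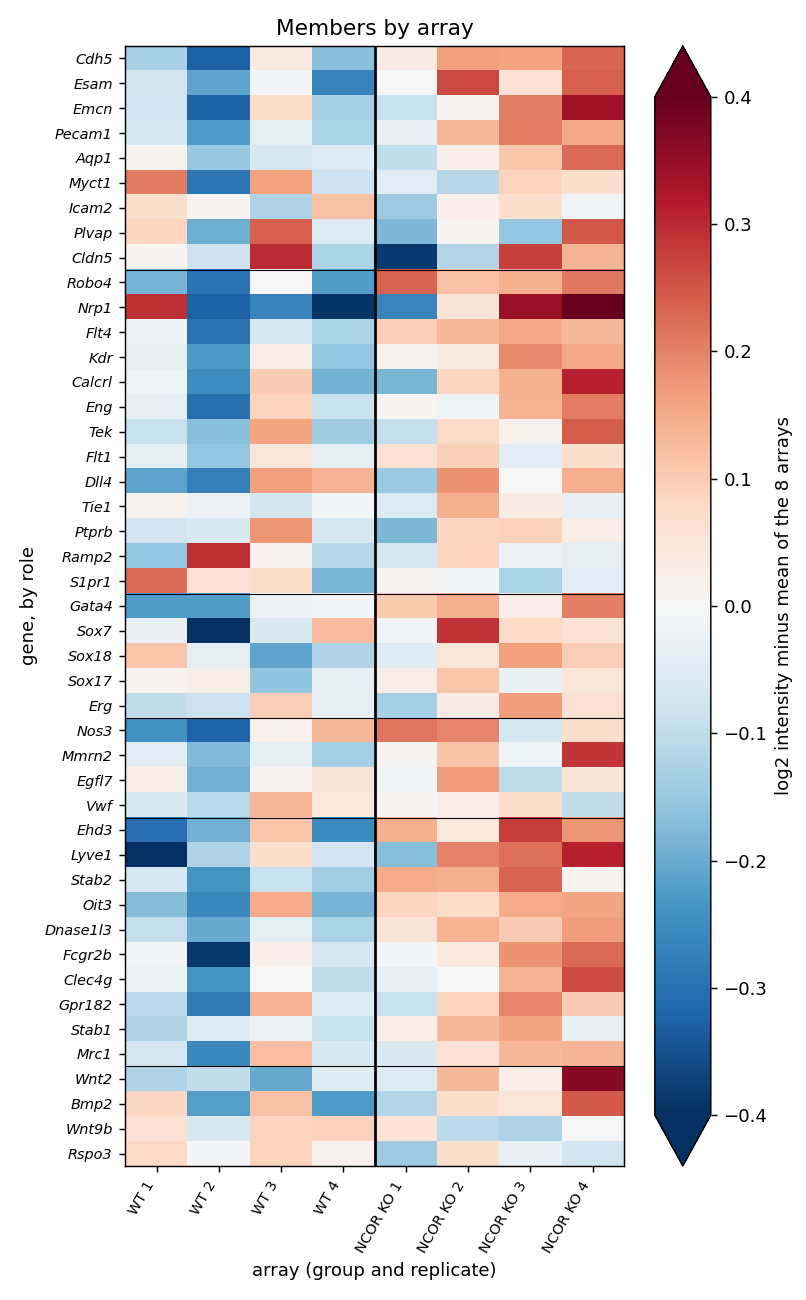
Heat map of the 45 genes (rows, by role) on the 8 arrays (columns), coloured by log2 intensity minus the gene's mean over 8 arrays, with colour limits at 0.4 either way. WT replicate 2 is the bluest column, with the lowest value of 26 genes, and NCOR_KO replicate 4 holds the highest value of 18.

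Among receptors and guidance molecules, Robo4 had log2 levels of 7.65, 7.54, 7.84 and 7.62 in WT replicates 1 to 4 and of 8.08, 7.96, 7.98 and 8.05 in NCOR_KO replicates 1 to 4. All 4 knockout values were above the highest control value, WT replicate 3. Control liver averaged 7.66 ± 0.13 and knockout liver 8.02 ± 0.06 (SD, n = 4 arrays each). Its change was 0.35 ± 0.07 (SE) on the log2 scale, and the limma adjusted p was 0.0429. The call was lost in 11 of 17 alternative fits. Over all 17 the log2 change ran from 0.29 to 0.41 and the adjusted p from 0.0260 to 0.147. It was lost without WT replicates 1, 2 or 4 (adjusted p = 0.101, 0.0763 and 0.111) and without NCOR_KO replicates 1 to 4 in turn (adjusted p = 0.108, 0.103, 0.0878 and 0.0900). Without WT replicate 2 and NCOR_KO replicate 1 together, the log2 change was 0.29 (adjusted p = 0.147).

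None of the VEGF receptor genes passed. Flt4, the receptor for VEGF-C, had log2 levels of 8.20, 7.92, 8.15 and 8.09 in control and of 8.32, 8.35, 8.37 and 8.35 in knockout liver. Its knockout values were close together and all above the controls, and the change of 0.25 ± 0.07 (SE) had a limma adjusted p of 0.101. Kdr, the main signalling receptor for VEGF-A, had log2 levels of 8.97, 8.78, 9.03 and 8.85 in control and of 9.02, 9.04, 9.20 and 9.16 in knockout liver. Here the groups touch, because WT replicate 3 exceeds NCOR_KO replicate 1 by a small margin, and the change of 0.20 had an adjusted p of 0.227. Flt1, a VEGF receptor that also acts as a decoy, had a log2 change of 0.09 (adjusted p = 0.514). Nrp1, a VEGF and semaphorin co-receptor also found outside endothelium, had log2 levels of 9.62, 9.005, 9.06 and 8.94 in control and of 9.07, 9.38, 9.67 and 9.89 in knockout liver. WT replicate 1 stood above the other controls, between the lower and the upper pair of knockout values, and the change of 0.35 ± 0.19 (SE) had an adjusted p of 0.403.

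None of the angiopoietin, TGF-beta and adrenomedullin receptor genes passed. Tek, the angiopoietin receptor, had a log2 change of 0.12 (adjusted p = 0.557) and its partner Tie1 one of 0.04 (adjusted p = 0.775). Ptprb, the phosphatase that dampens TEK, had log2 levels of 9.93, 9.94, 10.18 and 9.94 in control and of 9.82, 10.09, 10.10 and 10.03 in knockout liver. WT replicate 3 was the highest of the 8 values and NCOR_KO replicate 1 the lowest, with the others in between, and the interval of its change, 0.01, ran from -0.17 to 0.20. Eng, a TGF-beta co-receptor, had a log2 change of 0.17 (adjusted p = 0.391). Calcrl and Ramp2, which form the adrenomedullin receptor together, had log2 changes of 0.18 and -0.02 (adjusted p = 0.473 and 0.943). S1pr1, the sphingosine-1-phosphate receptor that keeps vessels tight, had a log2 change of -0.09 (adjusted p = 0.661), and Dll4, a Notch ligand, one of 0.09 (adjusted p = 0.744). In all, 11 of these 13 members were above 0, 1 rose and 12 did not pass.

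Of 9 junction and surface genes 6 were above 0 and 0 passed, with a median change of 0.13. Cdh5, the VE-cadherin of endothelial junctions, had log2 levels of 9.34, 9.14, 9.51 and 9.30 in control and of 9.50, 9.64, 9.63 and 9.70 in knockout liver. The groups overlap only through WT replicate 3 and NCOR_KO replicate 1, which are level. Its change was 0.30 ± 0.08 (SE, adjusted p = 0.108). Esam, a junctional adhesion molecule, had log2 levels of 7.44, 7.30, 7.50 and 7.24 in control and of 7.51, 7.77, 7.57 and 7.75 in knockout liver (log2 change 0.28, adjusted p = 0.136). Pecam1, the CD31 antigen, had log2 levels of 7.95, 7.79, 7.98 and 7.89 in control and of 7.99, 8.15, 8.22 and 8.17 in knockout liver (log2 change 0.23, adjusted p = 0.145). In both genes the knockout values all lay above the controls, but by less than 0.01. Emcn, a sialomucin of veins and capillaries, had a log2 change of 0.23 (adjusted p = 0.332), and the water channel gene Aqp1, which cholangiocytes also express, one of 0.13 (adjusted p = 0.447).

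The remaining members of that group lay close to 0. Plvap, which forms the diaphragms of fenestrated capillaries, had log2 levels of 8.17, 7.89, 8.32 and 8.03 in control and of 7.90, 8.09, 7.93 and 8.33 in knockout liver. The ranges coincide, and its change was -0.04 with an interval from -0.29 to 0.21. Cldn5, the tight-junction claudin of endothelium, had a log2 change of -0.05 (95% interval -0.36 to 0.26), Icam2, an adhesion molecule, one of -0.03, and Myct1 one of 0.00 (-0.24 to 0.24). Icam2 was the single member whose level, 5.38 in control liver, lay below that of the median gene on these arrays (5.88). Mean levels of Wnt9b (5.99), Sox7 (6.05), Cldn5 (6.12), Myct1 (6.13), Sox17 (6.18), Sox18 (6.21) and Wnt2 (6.38) lay only a little above it. Whether a member stood above background signal was not tested.

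All 5 transcription factor members were above 0 and none passed. GATA4, which directs the sinusoidal identity of liver endothelium, is also made by stellate cells. Gata4 had log2 levels of 7.28, 7.28, 7.48 and 7.50 in control and of 7.61, 7.65, 7.53 and 7.71 in knockout liver. The knockout values lay above the controls by a gap of 0.03 (change 0.24 ± 0.07 SE, adjusted p = 0.146). Sox7, Sox18 and Sox17, the SoxF factors of vessel development, had log2 changes of 0.21, 0.13 and 0.08 (adjusted p = 0.421, 0.462 and 0.578). Erg, the ETS factor that maintains endothelial identity, had a log2 change of 0.06 (adjusted p = 0.728). Of the secreted and enzyme members, Nos3, the endothelial nitric oxide synthase, had a log2 change of 0.21 (adjusted p = 0.377) and Mmrn2, a matrix protein of endothelium, one of 0.19 (adjusted p = 0.253), with its knockout values all above the controls. Egfl7, a secreted vessel protein, had a log2 change of 0.05 and Vwf, the von Willebrand factor of larger vessels, one of -0.00 (interval -0.16 to 0.15).

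All 10 sinusoidal genes were above 0, from 0.14 to 0.32 with a median of 0.23, and their changes varied by an SD of 0.06. The median standard error of a single change was 0.09. These genes were read on the same arrays and varied together within groups (median pairwise correlation 0.49 across 8 arrays). Their spread therefore cannot show whether they changed by an equal amount. None of them passed at an adjusted p under 0.05, and 7 of the 10 had an unadjusted limma p under 0.05, where 7.75% of all genes were higher. Without WT replicate 2 and NCOR_KO replicate 1 all 10 were above 0 again, with a median of 0.18. None of the 17 alternative fits turned any of them below 0, but these fits reuse the same arrays and several cannot move a log2 change. That the sinusoidal group differs from the other members was not tested.

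Stab2, the hyaluronan-clearing scavenger receptor of the sinusoid, had log2 levels of 9.35, 9.19, 9.33 and 9.28 in control and of 9.57, 9.57, 9.65 and 9.43 in knockout liver. The groups do not overlap, and its change of 0.27 ± 0.07 (SE) had a limma adjusted p of 0.0831. Dnase1l3, a secreted nuclease that degrades circulating chromatin, had log2 levels of 9.16, 9.05, 9.22 and 9.13 in control and of 9.31, 9.40, 9.36 and 9.42 in knockout liver. It too was separated, with a log2 change of 0.23 ± 0.06 (SE, adjusted p = 0.0894). Both passed when genes dimmer than the median gene were left out of the test (adjusted p = 0.0492 and 0.0497). Ehd3, an endocytic membrane-shaping ATPase, had log2 levels of 10.65, 10.76, 11.07 and 10.70 in control and of 11.10, 11.00, 11.23 and 11.13 in knockout liver. WT replicate 3 alone reached the knockout values, and the change of 0.32 ± 0.09 (SE, adjusted p = 0.130) became 0.41 with an adjusted p of 0.0392 without it.

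Lyve1, a hyaluronan receptor shared with lymphatic vessels and some macrophages, had log2 levels of 9.31, 9.60, 9.79 and 9.65 in control and of 9.56, 9.93, 9.95 and 10.04 in knockout liver (log2 change 0.28, adjusted p = 0.301). WT replicate 1 was low and NCOR_KO replicate 1 lay within the control range. Clec4g, a lectin of sinusoidal endothelium, had log2 levels of 11.27, 11.05, 11.29 and 11.19 in control and of 11.26, 11.29, 11.43 and 11.56 in knockout liver (log2 change 0.18, adjusted p = 0.319). Its groups overlap in their upper control and lower knockout values. Log2 changes were also above 0 for Oit3 (0.23), Fcgr2b, the inhibitory Fc receptor that clears immune complexes (0.22), the orphan receptor gene Gpr182 (0.15), Stab1, another stabilin (0.14), and Mrc1, the mannose receptor (0.14), with adjusted p-values of 0.224 to 0.475. Fcgr2b, Stab1, Lyve1 and Mrc1 are also expressed by macrophages.

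**Figure D3:**
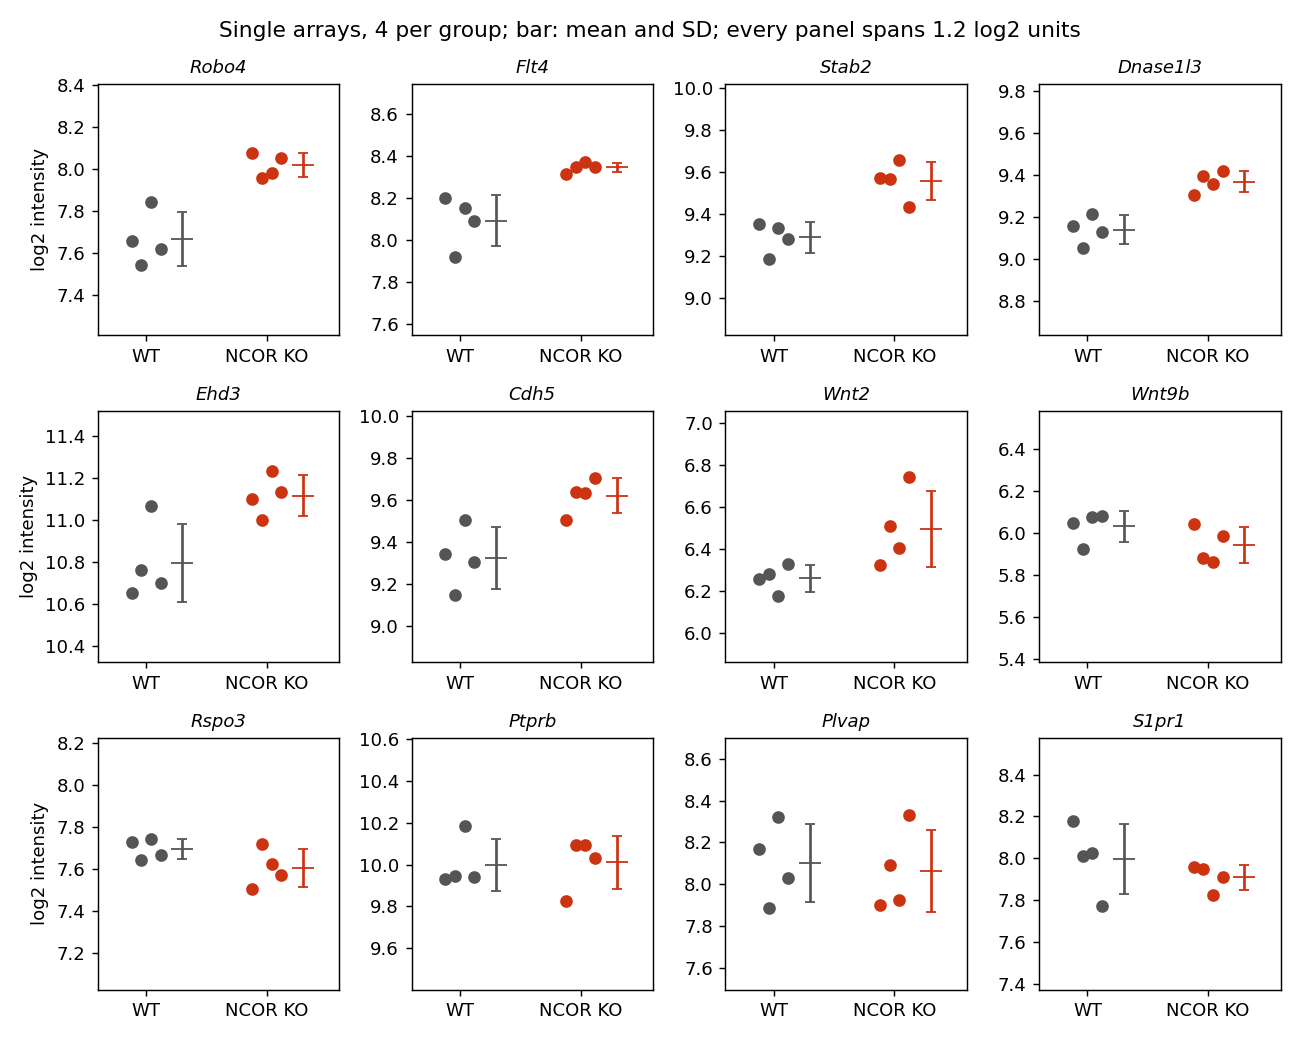
Log2 intensity of 12 members on single arrays (points, 4 control in grey and 4 knockout in red) with the mean and SD beside them, each panel spanning 1.2 log2 units. Robo4, Flt4, Stab2 and Dnase1l3 show no overlap between groups, while Wnt9b, Rspo3, Ptprb, Plvap and S1pr1 overlap.

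Of the 4 angiocrine genes 2 were above 0 and 0 passed, with a median change of 0.02. Wnt2 had log2 levels of 6.26, 6.28, 6.18 and 6.33 in control and of 6.32, 6.51, 6.40 and 6.74 in knockout liver. NCOR_KO replicate 4 was the highest and NCOR_KO replicate 1 lay within the control range, and the change was 0.23 ± 0.09 (SE, adjusted p = 0.231). Wnt9b had log2 levels of 6.05, 5.92, 6.08 and 6.08 in control and of 6.04, 5.88, 5.87 and 5.99 in knockout liver (log2 change -0.09, adjusted p = 0.552). Rspo3, the R-spondin that amplifies Wnt signalling, had log2 levels of 7.73, 7.64, 7.74 and 7.67 in control and of 7.51, 7.72, 7.63 and 7.57 in knockout liver (log2 change -0.09, adjusted p = 0.529). Both overlap between groups. Both stayed below 0 in all 17 alternative fits, but these reuse the same arrays and several cannot move a log2 change. Bmp2 had a log2 change of 0.12 (adjusted p = 0.600). The mean levels of Wnt9b (5.99) and Wnt2 (6.38) lay only a little above that of the median gene (5.88).

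Each member was also set against the median log2 level of the 45 on the same array. On each array that median is the level of a single gene of middle brightness. It is Pecam1 in WT replicates 1 to 3, and S1pr1 in WT replicate 4 and NCOR_KO replicate 1. Robo4 holds it in NCOR_KO replicates 2 and 4 and Plvap in NCOR_KO replicate 3, so Robo4 was partly set against itself. These differences are within-array values, and they show neither which gene moved nor how even the changes were. Relative to that median the knockout shift ran from -0.19 to 0.25, and 20 of the 45 members lay within 0.1 of 0. Robo4 (0.25), Cdh5 (0.20) and Esam (0.18) had all 4 knockout values above all 4 control values on this scale, as did 0.938% of all genes. Wnt9b (-0.19) had all 4 below, as did 11% of all genes, and Rspo3 (-0.19) and S1pr1 (-0.19) were as low but overlapped between groups. Without this reference the shares of all genes were 4.9% above and 5.49% below, so the reference itself moved them. The median depends on the genes chosen, and no test was made.

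How far the members varied together within groups depended on WT replicate 2 and NCOR_KO replicate 1. After each gene's group mean was removed, the median Pearson correlation over the 990 pairs of members was 0.37 across 8 arrays, and over the 45 pairs of sinusoidal genes 0.49. Across the 6 arrays without those it was 0.18 over all pairs and 0.45 over the sinusoidal pairs. Each member was also set against the median of the other 44, and 30 of the 45 correlated above 0.5 across 8 arrays and 23 across 6. The closest across 8 arrays were Cdh5 (0.96), Mrc1 (0.96) and Dnase1l3 (0.94), and 2 were negative, Sox17 (-0.50) and Ramp2 (-0.37). Across 6 arrays Cdh5 had 0.96, Mrc1 0.87, Dnase1l3 0.88, Sox17 -0.64 and Ramp2 0.31. These points share the array, the RNA sample and the normalization, and the values are descriptions.

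Other genes of endothelium, in a separate list of 62 measured genes, were compared next. Their median change was 0.08, with 42 above 0, and limma called 0 in either direction. At an unadjusted p under 0.05, 14 were higher and 2 lower, where 7.75% of all genes were higher and 8.15% lower. The change farthest from 0 was that of Hhex, a transcription factor of endothelium that hepatocytes also use. It had log2 levels of 9.22, 8.02, 8.29 and 8.59 in control and of 7.64, 8.13, 7.78 and 8.19 in knockout liver, a change of -0.59 ± 0.23 (SE, adjusted p = 0.232) in which WT replicate 1 stands high.

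Ligands for the member receptors were measured in the same livers, and 0 of 25 passed with limma. At an unadjusted p under 0.05, 2 were higher and 2 lower (8% each), near the 7.75% and 8.15% of all genes. Vegfa, which hepatocytes make for the sinusoid, had a log2 change of 0.09 (adjusted p = 0.561), Vegfb one of 0.17 (adjusted p = 0.494) and Vegfc, the ligand of FLT4, one of -0.12 (adjusted p = 0.443). Of the angiopoietins, Angpt1 had log2 levels of 4.44, 4.25, 4.49 and 4.47 in control and of 4.56, 4.71, 4.54 and 4.75 in knockout liver (log2 change 0.23, adjusted p = 0.178), separated but dim, and Angpt2 had a log2 change of 0.20 (adjusted p = 0.631). The placental growth factor gene Pgf (0.18) and the adrenomedullin gene Adm (-0.11) were dim as well. Gdf2 and Bmp10, which encode the ligands that endoglin helps to bind, had log2 changes of 0.01 and 0.05, and Bmp6, the endothelial partner of Bmp2, one of 0.02. Cxcl12, a chemokine made by stromal and endothelial cells, was the member of that list farthest from 0, with a log2 change of -0.30 ± 0.09 (SE, adjusted p = 0.149), with all 4 knockout values below the controls.

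Genes that respond in liver to BMP and Wnt signals, to which the angiocrine members contribute, were measured too. Of 25, 4 were above 0, 0 rose and 2 fell, and the median change was -0.09. At an unadjusted p under 0.05, 0 were higher and 7 lower, where 7.75% of all genes were higher and 8.15% lower. All 4 knockout values lay below all 4 control values in 5 of the 25, where 5.49% of all genes did so. Rhbg, a pericentral ammonium transporter gene, had log2 levels of 8.38, 7.92, 8.43 and 8.49 in control and of 7.28, 7.27, 7.50 and 7.63 in knockout liver. It fell by 0.89 ± 0.13 (SE, adjusted p = 0.00921), with no overlap. Cyp1a2, a pericentral cytochrome P450 gene, fell by 0.33 ± 0.07 on the log2 scale (SE, adjusted p = 0.0429). Not all genes of the list were lower. Glul and Cyp2e1 had log2 changes of -0.005 and -0.01. Id1 and Id3 had log2 changes of 0.27 each without passing (limma adjusted p = 0.333 and 0.559). Their relatives did not follow them, as Id2 (-0.31), Smad9 (-0.26), Atoh8 (-0.25) and Smad7 (-0.20) were below 0 without passing. Lgr5 (-0.67) and Rnf43 (-0.49) were lower as well without passing (limma adjusted p = 0.209 and 0.0985). Without WT replicate 2 and NCOR_KO replicate 1 the median was -0.13 and 1 of the 25 passed. The part of the angiocrine genes in these values was not tested.

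Marker lists of other liver cell types were set beside the members, since several of them varied on the same arrays. Across 8 arrays limma put 7.75% of all genes higher and 8.15% lower at an unadjusted p under 0.05. At an adjusted p under 0.05 it called 0.816% of all genes higher and 0.834% lower. Of 16 Kupffer cell and macrophage markers 13 were above 0, with a median of 0.11, and limma called 0, with 0 in either direction at an unadjusted p under 0.05. Their median deviation was lowest in WT replicate 2 (-0.65) and NCOR_KO replicate 1 (-0.36), against -0.05 to 0.29 on the other arrays. Their summed intensity ran from 5457 to 9127 in control and from 6006 to 9700 in knockout liver. Within groups the list median correlated with that of the endothelial members at 0.94 across 8 arrays, and at 0.92 across the 6 without WT replicate 2 and NCOR_KO replicate 1. High values were not confined to macrophages. Across the same 8 and 6 arrays, stellate and mesenchymal markers had 0.77 and 0.82, and lymphocyte markers 0.64 and 0.71. The other endothelial genes had 0.90 and 0.64, hepatocyte markers -0.33 and -0.24, and lymphatic markers -0.77 and 0.11. For the 45 members the summed intensity ran from 17226 to 20551 in control and from 19711 to 22727 in knockout liver. The marker farthest from 0 was Vsig4, a Kupffer cell complement receptor gene, with a log2 change of 0.33 ± 0.27 (SE, adjusted p = 0.588). The part of these cells in the member values was not tested, and without WT replicate 2 and NCOR_KO replicate 1 the macrophage median was 0.08, with 3 of 16 higher and 0 lower at an unadjusted p under 0.05 and 0 called by limma, and that of the members 0.14.

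The median of the cholangiocyte markers parted the groups, at -0.15 to -0.08 on control and 0.06 to 0.09 on knockout arrays. Singly, 1 of the 8 markers, Epcam, had all 4 knockout values above all 4 control values, as did 4.9% of all genes. Cftr (mean level 3.99), Tspan8 (4.20), Sctr (4.50) and Krt7 (5.54) were dimmer than the median gene (5.88). All 8 measured were above 0, with a median of 0.19, and Epcam, an epithelial adhesion gene of bile ducts, rose by 0.41 ± 0.09 (SE, adjusted p = 0.0452). At an unadjusted p under 0.05, 4 of the 8 were higher and 0 lower, where 7.75% of all genes were higher. Their summed intensity was 437 to 452 in control and 506 to 574 in knockout liver, and their part in the member values was not tested. Without WT replicate 2 and NCOR_KO replicate 1 the median was 0.13 and 0 passed. Of 11 lymphocyte markers 7 were above 0 and 4 below, with a list median of 0.09. With limma 2 rose, Cd3e of the T cell receptor complex (log2 change 0.47, adjusted p = 0.0373) and Cd79a of the B cell receptor (log2 change 0.41, adjusted p = 0.0173), and 0 fell. Cd3g, of the same complex as Cd3e, had a log2 change of -0.04 and Cd4 one of -0.30. The mean levels of Cd3e (5.80) and Cd79a (5.29) lay below that of the median gene (5.88). Without WT replicate 2 and NCOR_KO replicate 1, 1 of the 11 passed. At an unadjusted p under 0.05, 4 of the 11 were higher and 0 lower.

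Stellate and mesenchymal markers had a median of 0.00, with 8 of 16 above 0 and 0 past the limma threshold, and with 1 higher and 1 lower at an unadjusted p under 0.05. The one farthest from 0 was Colec10, a collectin gene, with a log2 change of 0.50 ± 0.11 (SE, adjusted p = 0.0602). For 15 hepatocyte markers the median change was -0.01. Of these 1 fell, Cebpa, a hepatocyte transcription factor (log2 change -0.35, adjusted p = 0.0158), and 0 rose, with 0 higher and 1 lower at an unadjusted p under 0.05. Of 7 smooth muscle markers 1 fell, Mylk, the myosin light chain kinase (log2 change -0.50, adjusted p = 0.0386), which did not pass without those arrays, and at an unadjusted p under 0.05 the 7 held 0 higher and 1 lower. The lists for neutrophils (8 measured, log2 change farthest from 0 for Retnlg, -0.11), erythroid cells and platelets (5, Itga2b at 0.33), mesothelium (6, Upk1b at -0.21) and lymphatic vessels (4, Pdpn at 0.08) had 0 members past the limma threshold in either direction, and at an unadjusted p under 0.05 they had 0, 1, 1 and 0.

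**Figure D4:**
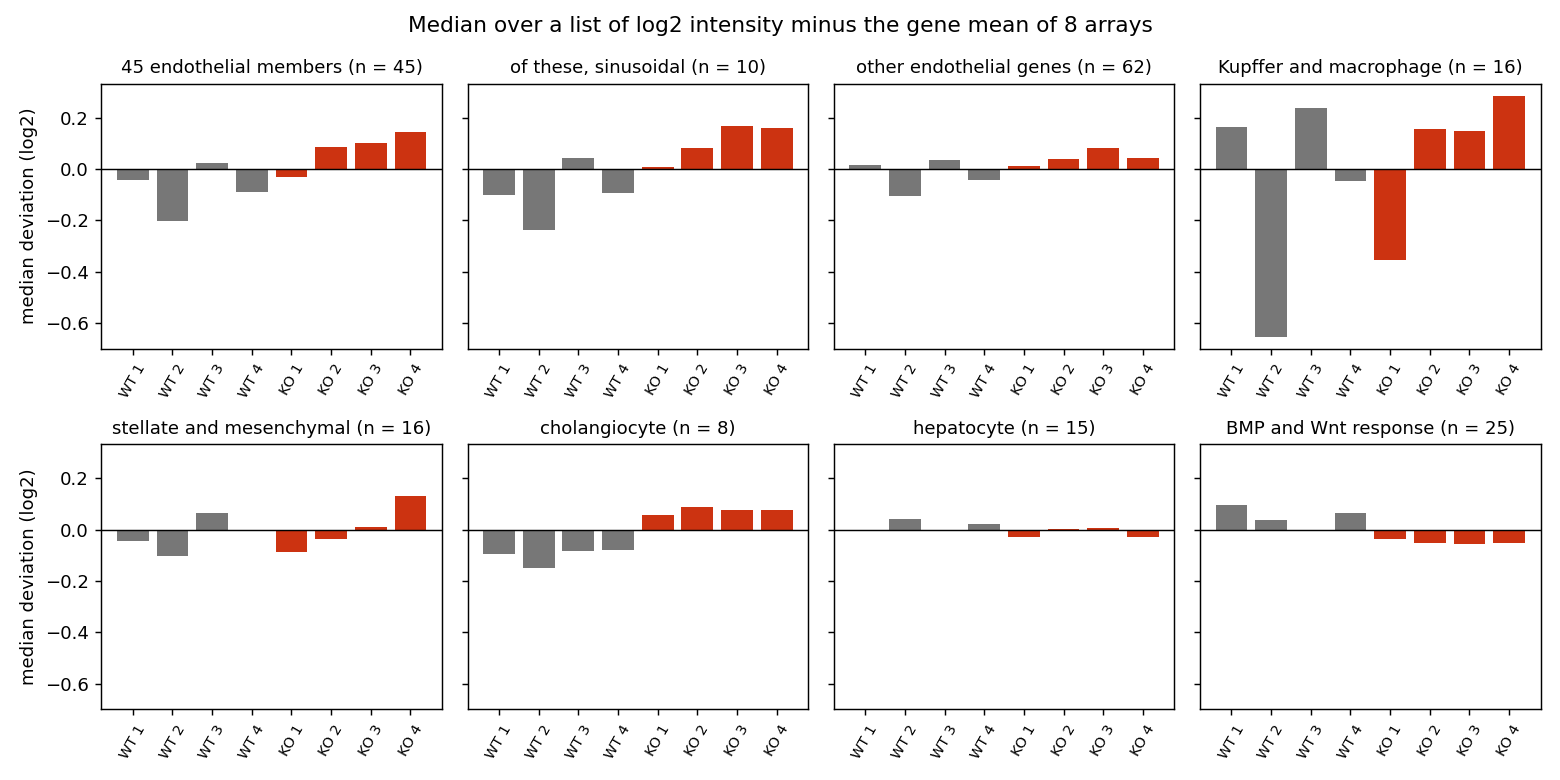
Median over each list of log2 intensity minus the gene's mean over 8 arrays (vertical axis) for every array, control in grey and knockout in red. The endothelial members run from -0.20 in WT replicate 2 to 0.15 in NCOR_KO replicate 4, and the macrophage list dips to -0.65 in WT replicate 2 and -0.36 in NCOR_KO replicate 1.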

How the data were processed

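The authors deposited linear intensity values per probe set. RMA and Partek were used, per the submitters' processing notes, which give no role or version. Genome build and filters are not given in the sources used here. Log2 was taken, with no further normalization and no filter on dim genes. Of 41345 probe sets 23521 had a single gene, and the 1814 with several genes were left out. Groups and replicate numbers come from the sample labels. All 22180 genes were fitted with limma 3.58.1 on R 4.3.3 (lmFit, eBayes, intercept and group), with Benjamini-Hochberg adjustment over all of them, a threshold of 0.05 and 95% intervals from the fit. The members, lists and alternatives were chosen with earlier results of these data known. Of other lists, up to 6 genes past the threshold were named, or the 1 farthest from 0, and a fixed set of receptor ligands. Some further list members were also named, whether near 0, dim, changed the other way or changed with the list without passing. Same-numbered arrays did not deviate together (correlations -0.09, 0.01, 0.02 and -0.06), so the numbers were not taken as pairs. In simulated data for this comparison, 12% of 50 genes changed 1.2-fold were called and 68% of 50 changed 1.5-fold. Genes were drawn independently there, with each gene's observed spread taken as true. The shares need not hold for the real data, where the number of changed genes is unknown and genes vary together. Figures were drawn with matplotlib 3.10.9.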

Additional observations from a re-analysis of the deposited data

Results flagged for a closer look

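Of 90 groups of 4 arrays, 2 held an array far from the other 3 by Dixon's 95% criterion, where chance flags about 1 in 20. In control liver Ptprb was high in WT replicate 3, at 10.18 against 9.94 for the nearest array. Egfl7 was low in WT replicate 2, at 7.20 against 7.40 for the nearest.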

How the results depend on the processing

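The median change of the members was above 0 in every alternative, from 0.10 (without WT replicate 2) to 0.21 (without WT replicate 3). All alternatives reuse the same arrays. A member's log2 change cannot move under another variance setting, the median-level filter, the probe set alternatives or the replicate block. Those fits therefore say nothing about its sign. The count of members called higher was 2 with quantile normalization (Robo4 and Flt4, adjusted p = 0.0494), 3 with genes at or above the median level only, and 3 at an adjusted p under 0.1. It was 0 with array centring, array weights, the replicate block, a treat test of all 45 against 1.2-fold, a threshold of 0.01, and without WT replicate 2 and NCOR_KO replicate 1 together, and 0 to 2 without single arrays. The call of Robo4 was lost with array centring (adjusted p = 0.0601), array weights (0.0516) and the replicate block (0.0979), and the block changed no other member's call. No member was called lower in any of these. Across all genes, the replicate block gave 84 higher and 71 lower, single arrays left out 67 to 139 and 53 to 158, both arrays left out 102 and 100, treat 26 and 10, a threshold of 0.01 54 and 34, and one of 0.1 371 and 436. Lower calls were 295 with array centring and 314 among genes at or above the median level, where fewer genes were tested. Changes of sign were confined to members near 0. Without single arrays the log2 change of Icam2 ran from -0.081 to 0.0086, Cldn5 from -0.15 to 0.072, Plvap from -0.13 to 0.035, Myct1 from -0.096 to 0.070, Ptprb from -0.017 to 0.073, Ramp2 from -0.075 to 0.074, Egfl7 from -0.0018 to 0.096 and Vwf from -0.039 to 0.041. Myct1 was -0.020 with quantile normalization, -0.035 with array centring and -0.049 with array weights, Ptprb was -0.024 with array centring, and Ramp2 was 0.0023 with quantile normalization and 0.027 with array weights. Without both arrays Icam2 was 0.0061, Cldn5 0.037, Myct1 -0.082 and Ramp2 0.094. The causes were not tested. Depth here is the number of arrays. In the simulation, with genes drawn independently, most changes of 1.2-fold were missed at 4 per group, and the share missed in the real data is not known.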

Other observations

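Probe sets annotated to several genes stayed outside the comparisons. One shared by Ramp2 and Vps25 read 10.71, 10.50, 10.66 and 10.54 in WT replicates 1 to 4 and 10.31, 10.47, 10.63 and 10.72 in NCOR_KO replicates 1 to 4. One shared by Egfl7 and Mir126a, the endothelial microRNA gene that Egfl7 hosts, read 4.20, 4.49, 4.25 and 4.08 in control and 3.95, 4.27, 4.05 and 4.05 in knockout liver. One shared by Dll4 and Gm14207 read 5.60, 5.51, 5.63 and 5.42 in control and 5.57, 5.61, 5.59 and 5.73 in knockout liver. In all of them the groups overlap.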
